A study of Mus musculus with 10 samples.

Results

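The enteric nervous system is the network of neurons and glia inside the gut wall, and 8 genes that mark its cells are described here in mouse colon with and without Trp53, the gene of the tumour suppressor p53. The genes are Elavl4, Ret, Uchl1, Chat and Nos1, used as neuronal markers, and Sox10, Gfap and Gpm6b, used as glial markers. They were chosen by name, and every probe that the array files assign to them was taken, which gave 20 of 56605 probes and 8 of 25160 named genes. The label of an enteric neuron and glia set held for tissue only in part, because Chat, Nos1 and 2 of the 3 Elavl4 probes were near background in whole colon.

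RNA was compared on 10 Agilent arrays that each hold 2 samples in 2 dyes, Cy3 and Cy5. The 4 tissue arrays compared whole colon of 2 KO and 2 WT male mice, 2 months after 2% dextran sodium sulfate (DSS) in the drinking water for 5 to 7 days, which injures the colon epithelium. KO mice came from a cross of Axin2CreERT2 with Trp53 fl/fl and were injected with tamoxifen, so the recombinase acts in Axin2-expressing cells, and whole colon also holds cells outside that lineage. Whether WT mice carried the recombinase or received tamoxifen is not stated. The 6 organoid arrays compared cultures of colon crypts, with 2 samples each of WT, KO and KOWI. KO organoids came from VillinCreERT2 x Trp53 fl/fl mice, where the recombinase is driven by an epithelial promoter, were given 800 nM 4OH-tamoxifen for 2 days and were then selected with Nutlin-3A, a drug that activates p53 and depletes cells that retain it. WT and KO grew in full medium with 0.328 nM of a surrogate Wnt protein and 3 µM of CHIR, a GSK3 inhibitor that activates Wnt signalling, and KOWI are Wnt-independent KO organoids grown without both. Medium and adaptation to it therefore cannot be told apart in KOWI against KO. The source genotype of WT organoids, and whether they received 4OH-tamoxifen or Nutlin-3A, is not given here. KO against WT organoids may therefore also differ by treatment and selection. The design text calls the replicates independent and biological. Whether the organoid replicates derive from different animals is not given, so their p-values may measure technical spread.

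Enteric neurons and glia descend from neural crest cells that migrate into the embryonic gut, a step that needs the receptor tyrosine kinase RET, its ligand GDNF and the transcription factor SOX10. Mature neurons include cholinergic cells, which make acetylcholine with the enzyme CHAT and mostly drive muscle contraction, and nitrergic cells, which make nitric oxide with NOS1 and relax it. Glia surround these neurons in the muscle and mucosa. Organoids from crypts are epithelial cultures, so a neural marker measured there is read in epithelial cells.

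Each gene was read through short DNA probes, and which probe carries the signal differed between genes. A stretch of 30 of the 60 probe bases is shown for the probes that the results turn on, read 5′ to 3′ on the gene's strand from the array files, with coordinates on mm9. Capitals mark a repeat in the top lines of Elavl4 and Chat and the polyadenylation signal AATAAA in the lines of Uchl1 and Gpm6b.
Elavl4 A_55_P1990314, chr4:109877465-109877494, minus strand: gtccttctgtTGTGTGTGTGtatgtgtaca
Chat A_55_P1959430, chr14:33221421-33221450, minus strand: gctattcAGAAAGAAAGAAAGAAAGAAaga
Elavl4 A_51_P503729, chr4:109884213-109884242, minus strand: gtgggattcatccgctttgataagaggatt
Uchl1 A_55_P2738927, chr5:67078435-67078464, plus strand: cttaagaggaagAATAAAactttgctggtg
Gpm6b A_55_P2483158, chrX:162826795-162826824, plus strand: attcaagtgttacAATAAAtatttgtagat
Ret A_55_P2160676, chr6:118101821-118101850, minus strand: ccataccgtgttgacttgtttttgtaatca
Sox10 A_55_P2740763, chr15:78985373-78985402, minus strand: ttgcattaagcactccaagtaatataatca
AATAAA lies near the poly(A) end of most transcripts, and the RNA was copied from that end with an oligo-dT primer. It occurs in 5529 probes, 9.77% of all. Gpm6b A_52_P260366 holds it too and was well above background in no channel. No result rests on the Chat probe shown. The 17 probes with a GAAA run like its own had a median log2 intensity of 7.60 in tissue, against 7.57 over all probes.

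The scanner software marks a spot as well above background in each channel, and this mark separated the probes. In tissue, with 8 channels, the single Ret and Sox10 probes and 1 probe each of Elavl4, Uchl1 and Gpm6b were well above background in all 8. Gfap A_52_P52303 was so in 5 of 8. None of the 6 Chat probes and neither Nos1 probe passed in more than 1 of 8 channels. In organoids, with 12 channels, Ret and Elavl4 A_55_P1990314 passed in all 12, Gpm6b A_55_P2483158 in 10, and Uchl1 A_55_P2738927 and Chat A_55_P2744601 in 8 each. Both Gfap probes, both Nos1 probes and the Sox10 probe passed in 0 of 12 channels. Transcripts of the glial markers Sox10 and Gfap and of the nitrergic marker Nos1 were thus not detectable in these epithelial cultures at the signal these arrays give, while Gpm6b, used as a glial marker too, was detected.

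**Figure D1:**
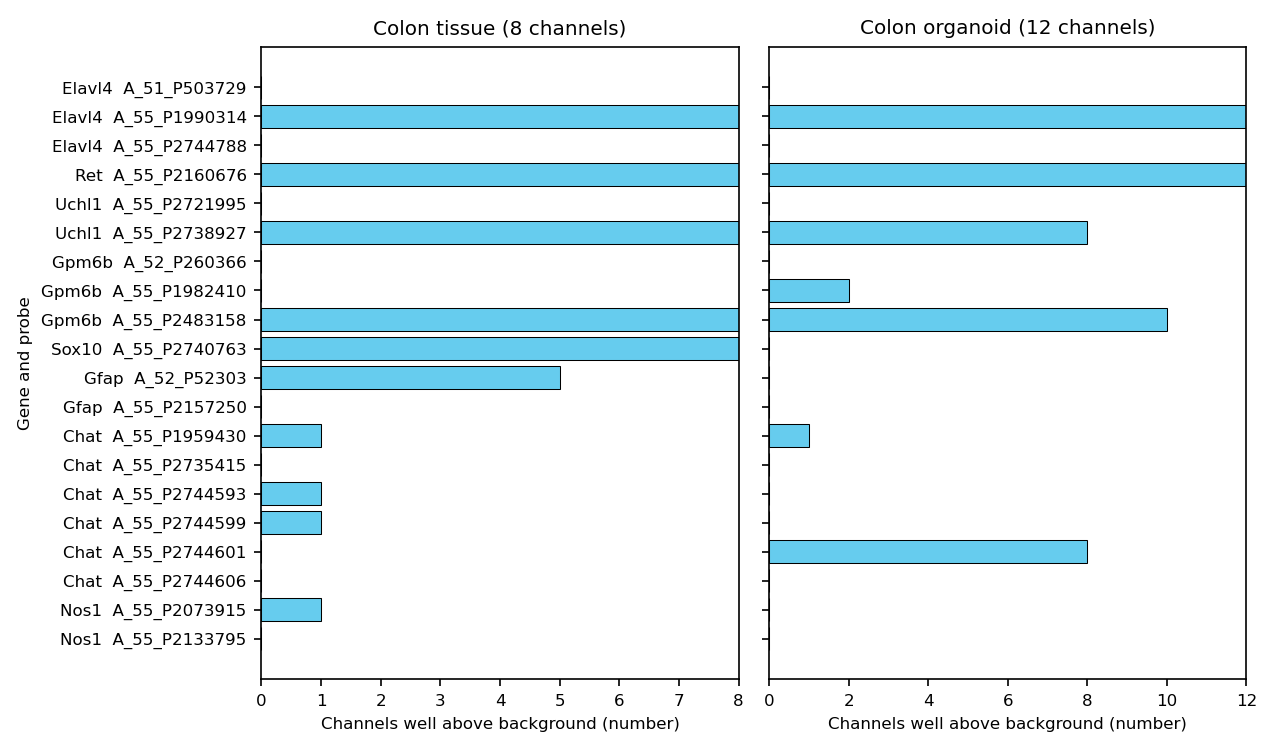
Number of array channels in which each of the 20 probes was well above background, for 8 tissue channels and 12 organoid channels. The horizontal axis counts channels. One probe per gene carries nearly all passes, and Sox10, Gfap and Nos1 have none in organoids.

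Elavl4 encodes HuD, an RNA-binding protein of neurons. Its probe A_55_P1990314 had log2 intensities in tissue of 14.39 and 15.01 in the WT mice and 14.48 and 14.99 in the KO mice. The same probe read 10.89 and 10.98 in WT organoids, 9.89 and 10.70 in KO and 11.59 and 12.23 in KOWI. Its other probes, A_51_P503729 and A_55_P2744788, were well above background in 0 of 8 tissue channels and 0 of 12 organoid channels. The 3 Elavl4 probes thus disagreed in every sample.

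The bright Elavl4 probe holds TGTGTGTGTG, a run of letters found in either frame in 167 of the 56605 probes (0.295%). Those 167 probes had a median log2 intensity of 16.94 on the tissue arrays, against 7.57 over all probes. On the organoid arrays the medians were 13.02 and 7.36. Of the 167, 89.2% were well above background in every tissue channel, against 36.4% of all probes. The part of this repeat in the Elavl4 signal was not tested, and no Elavl4 level is read from that probe below. With spots marked as outliers kept, its mean tissue log2 ratio of KO to WT was 0.03, from pair values of 0.08 and -0.02.

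**Figure D2:**
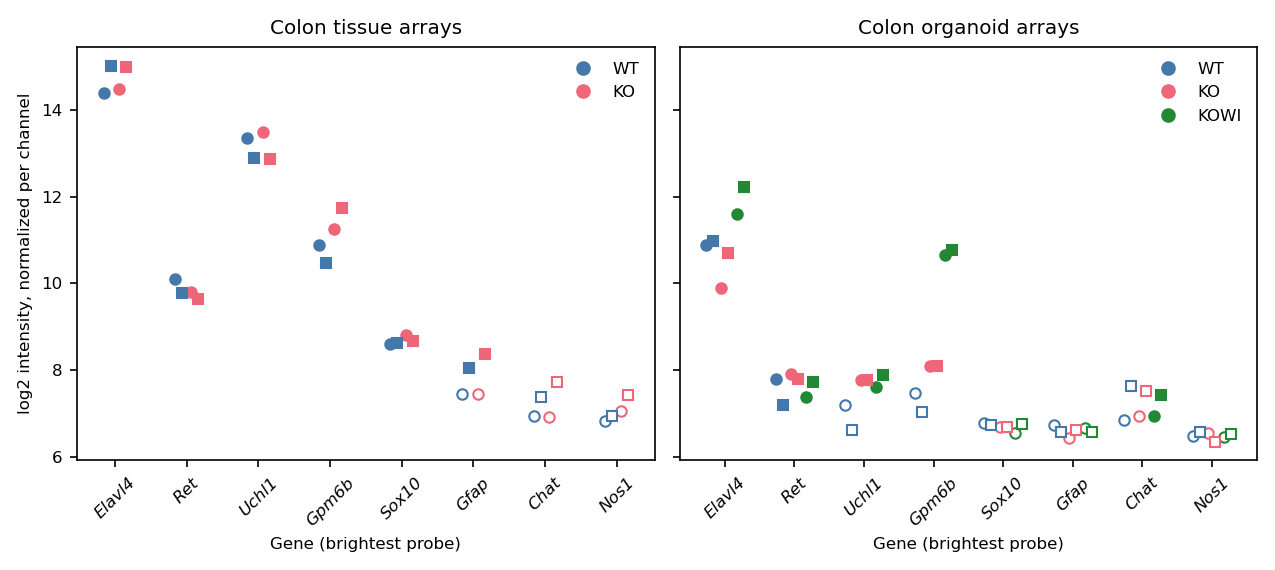
Normalized log2 intensity of the brightest probe of each gene in every sample, with circles for replicate 1 and squares for replicate 2. Filled symbols were well above background on both arrays of the sample, and open symbols were not. Gpm6b in KOWI stands above WT and KO, and Elavl4 is read by the TG-repeat probe.

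The Trp53 probe checks the labels only if it lies in the deleted part, which was not determined here. In organoids Trp53 was well above background in all 4 WT channels and in 0 of 4 KO and 0 of 4 KOWI channels. Its log2 KO over WT was -1.07 and -0.59 in the 2 replicates, and KOWI over WT was -0.95 and -0.64. The tissue pairs gave -0.46 and 0.04, so tissue samples are called KO and WT as labelled. Between 44.6% and 59.1% of probes in a channel were well above background. The 4 arrays that hold KOWI stood apart, with 13.7% to 16.3% of spots marked as outliers against 0.808% to 4.41% on the others, and calls that rest on them are given below with those spots kept as well.

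In regenerated colon tissue the question is whether loss of Trp53 leaves the enteric nervous system markers different from WT. No gene was called in KO over WT by limma at an adjusted p under 0.05, 0% of 12785 genes tested, and 1875 genes (14.7%) had an unadjusted p under 0.05. Of the 8 markers, 4 were tested, and none of these 4 had an unadjusted p under 0.05. Their median log2 KO over WT was 0.09, against -0.0034 over all genes tested. Fewer cells of a type and less RNA per cell cannot be told apart in such whole-tissue samples.

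Uchl1 encodes a ubiquitin hydrolase so abundant in neurons that its protein, PGP9.5, is a standard stain for them. Its probe had log2 intensities of 13.35 and 12.89 in WT and 13.48 and 12.87 in KO. The pair ratios were 0.13 and -0.02, a mean of 0.06 (SE 0.08, limma adjusted p = 0.772). The KO values lay beside the WT values of their own pair, and the pairs differed from each other by more than the genotypes. Mice of a pair shared their arrays, so a difference between pairs cannot be told apart from one between arrays.

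Ret, the GDNF receptor, read 10.10 and 9.77 in WT and 9.81 and 9.63 in KO. The pair ratios were -0.29 and -0.14, a mean of -0.21 or 1.16-fold lower (SE 0.08, limma adjusted p = 0.386). Single arrays ran from -0.50 to 0.10, and in both pairs the array with KO in Cy5 gave the lower ratio. The 4 sample levels of the genotypes overlapped.

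Sox10, the transcription factor of glia and their precursors, read 8.61 and 8.63 in WT and 8.81 and 8.68 in KO. Both KO mice were above both WT mice, by small steps. The pair ratios were 0.20 and 0.04, a mean of 0.12 (SE 0.08, limma adjusted p = 0.539). Of all genes tested, 32.3% had both pair ratios above 0, so that much is common. The share with both KO mice above both WT mice was not counted.

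Gpm6b encodes a membrane glycoprotein found in neurons and glia. Its probe read 10.89 and 10.48 in the WT mice and 11.25 and 11.73 in the KO mice. Both KO mice were above both WT mice. The pair ratios were 0.36 and 1.25, a mean of 0.80 or 1.75-fold (SE 0.28, limma adjusted p = 0.381). The 4 arrays gave 0.03, 0.63, 1.18 and 1.33, all above 0, but the spread between pairs was too large for a call. With arrays centred on the median and no loess, Gpm6b was called (0.73, limma adjusted p = 0.0155), where 865 genes were called in all.

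Gfap, the intermediate filament of glia, was uneven between the mouse pairs. Its brightest probe read 7.45 in WT 1 and 8.04 in WT 2, with 7.45 in KO 1 and 8.38 in KO 2. Both mice of pair 2 were well above background on both arrays, and in pair 1 only 1 of 4 channels was. The higher levels therefore followed the pair, not the genotype. Mice of a pair shared their arrays, so pair and array cannot be told apart in these levels. Gfap did not enter the test, since neither genotype was well above background in all 4 channels.

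Nos1 and Chat could not be measured in tissue. The 2 Nos1 probes gave pair ratios of 0.22 and 0.48 for A_55_P2073915, and 0.31 and 0.12 for A_55_P2133795. All 4 ratios were positive, but only 1 of 16 channels over both probes was well above background, so no direction is read from them. The mean ratios of the 6 Chat probes ran from -0.10 to 0.16.

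**Figure D3:**
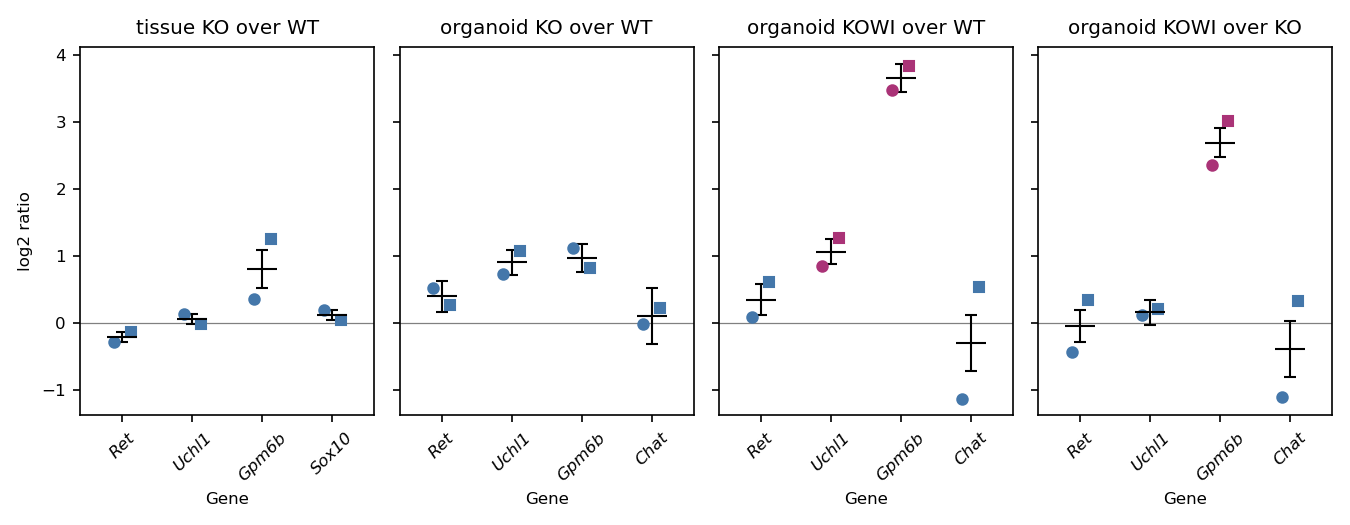
Log2 ratio of the tested markers in the 4 comparisons. Circles are pair or replicate 1, squares are pair or replicate 2, bars are the mean with its standard error, and purple marks genes called at an adjusted p under 0.05. Gpm6b is called in both KOWI comparisons and Uchl1 in KOWI over WT.

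The other enteric genes were taken from lists, and none of their genes was called in tissue. Over all genes tested in tissue, 48.9% were above 0. Of 31 other neuronal genes, 21 were tested, with 12 above 0 and a median log2 KO over WT of 0.03. The pairs went opposite ways, with medians of 0.23 and -0.16. The smallest p was that of Elavl2, a relative of Elavl4, at -0.84 (pairs -1.12 and -0.56, limma adjusted p = 0.294). Cntn1, a neuronal adhesion protein, was 0.89 in pair 1 and 0.16 in pair 2. Vsnl1, a calcium sensor, was 0.92 and 0.23.

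Of 18 other glial genes, 13 were tested, with 11 above 0 and a median of 0.49, and 5 had an unadjusted p under 0.05. Among all genes tested, 48.9% were above 0 and 14.7% had an unadjusted p under 0.05. Kcna1, a potassium channel, was 0.67 in pair 1 and 0.71 in pair 2, with a limma adjusted p of 0.253. Gas7 was 0.40 and 0.59, with a limma adjusted p of 0.272. Neither passed, and 0.253 was the smallest limma adjusted p of any gene tested in tissue.

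The pathway of RET and the endothelin receptor EDNRB had 12 of 22 genes tested, with 11 above 0, a median of 0.26 and 3 at an unadjusted p under 0.05. The shares over all genes were 48.9% above 0 and 14.7% at that p. Artn, a ligand of this receptor family, was 0.58 and 0.76 in the pairs. Gdnf, the ligand of RET, was 0.35 and 0.50, and Gfra2, a co-receptor, was 0.62 and 0.33. Ret itself had the opposite sign. Of the transmitter and neuropeptide genes, 15 of 25 were tested, with 8 above 0 and a median of 0.02. Gad2, which makes GABA, was -0.39 and -0.53, and Tac1, the precursor of substance P, was -0.22 and -0.31. Grp, a peptide of enteric neurons, was 0.21 and 0.44.

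No gene of the lists of other cell types was called in the same tissue either, and several lists lay to one side of 0. Over all genes tested, 48.9% were above 0. All 23 skeletal muscle genes tested, all 13 smooth muscle, all 14 fibroblast and all 7 endothelial genes were above 0, with medians of 0.63, 0.16, 0.40 and 0.35. Of these, 18 of 23 skeletal muscle and 6 of 14 fibroblast genes had an unadjusted p under 0.05, against 14.7% of all genes. All 18 squamous epithelium and skin genes were above 0 with a median of 0.24. The general epithelium list had 1 of 17 above 0 and a median of -0.09. The fibroblast, endothelial and adipocyte medians were larger in pair 2, at 0.69, 0.56 and 0.76 against 0.17, 0.08 and 0.21 in pair 1, as Gpm6b was. The muscle medians were larger in pair 1. Their part in the marker values was not tested.

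**Figure D4:**
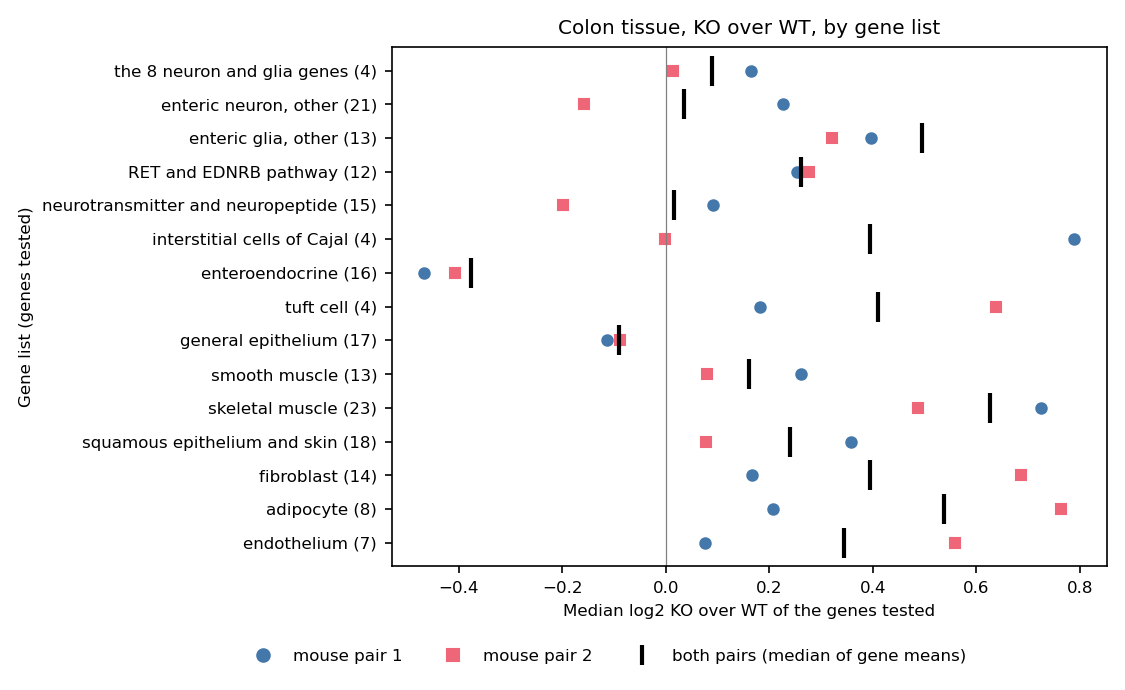
Median log2 KO over WT in tissue for each gene list, with the number of genes tested in brackets. Circles are pair 1, squares are pair 2, and bars are the median of the genes' means over both pairs, which can lie outside the pair medians. The median of the 4 markers tested, of 8, and that of the other neuronal genes lie near 0, glial, muscle and fibroblast genes above it, and enteroendocrine genes below it.

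Enteroendocrine cells are epithelial cells that share neuronal genes, so they were set beside the markers. In tissue 14 of 16 of their genes tested were below 0, with a median of -0.38 and 8 at an unadjusted p under 0.05. All tissue genes tested had 48.9% above 0 and 14.7% at that p. Gcg, the proglucagon gene, was -1.33 and -1.14 in the pairs, Neurod1, a factor of these cells and of neurons, was -1.08 and -0.94, and Chga, a granule protein, was -0.84 and -0.79. Their limma adjusted p was 0.253 each.

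In organoids the question is which of the neural markers the epithelium itself makes, and whether that changes with Trp53 and Wnt independence. Of the 8 markers, Ret, Uchl1, Gpm6b and Chat were tested. Uchl1 and Gpm6b passed the filter on dim probes through the KO and KOWI samples, not through WT, so their higher values there are partly built into the filter. Chat passed through KOWI alone. Replicate 1 of each organoid group was always in Cy3 and replicate 2 in Cy5, and an effect of dye cannot be told apart from one of replicate. Each array set replicate 1 of one group against replicate 2 of another, so the ratio of a replicate was solved from the ratios within all 6 arrays. The levels are averages over a sample's 2 arrays and also carry differences between arrays, so a difference of levels can depart from the ratio, in sign too.

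Gpm6b was called higher in KOWI than in WT and in KO. Its log2 intensity was 7.48 and 7.04 in WT, 8.09 and 8.10 in KO and 10.66 and 10.77 in KOWI. The 3 groups did not overlap, and in WT the probe was well above background in only 2 of 4 channels, 1 in each sample. The log2 KOWI over WT was 3.48 and 3.83 in the replicates, a mean of 3.65 (SE 0.21), and it was called with a limma adjusted p of 0.0070. Its size over WT depends on how background is taken off. The scanner software's own ratios gave 5.25 for KOWI over WT and 2.29 for KO over WT, and the authors' deposited table gave 5.35 and 2.31. The log2 KOWI over KO was 2.36 and 3.02, a mean of 2.69 or 6.45-fold (SE 0.21, limma adjusted p = 0.0253). The log2 KO over WT was 1.12 and 0.81, a mean of 0.96 (SE 0.21, limma adjusted p = 0.537), and no gene was called there.

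Of the 4 markers tested, 2 were called higher in KOWI over WT, where 3.26% of all 9894 genes were, and 1 was called higher in KOWI over KO, where 0.172% were. Since both markers entered the test only through the groups where they are high, nothing is read from these counts. In KO over WT limma called 0%, with 539 genes (5.45%) at an unadjusted p under 0.05. The arrays that compared the samples directly gave Gpm6b log2 ratios of 3.41 and 3.67 for KOWI over WT and 2.64 and 3.21 for KOWI over KO. None of those 4 spots was marked as an outlier. With outlier spots of all genes kept, KOWI over WT remained called (3.72, limma adjusted p = 0.0312) and KOWI over KO did not (2.75, adjusted p = 0.0791).

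The call of Gpm6b in KOWI over WT held in 15 of 16 alternatives and was lost without KOWI replicate 2 (limma adjusted p = 0.0872). The call in KOWI over KO was lost in 6 of 16, with values of 2.35 to 3.04. The other 2 Gpm6b probes, made for other transcripts, were not well above background in KOWI except 1 channel of A_55_P1982410, whose spot was marked as an outlier. The result therefore rests on the single probe with the polyadenylation signal shown above.

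Uchl1 read 7.19 and 6.63 in WT organoids, where 0 of 4 channels were well above background. It read 7.77 and 7.78 in KO and 7.63 and 7.90 in KOWI, where all 8 channels were. KO and KOWI overlapped and both stood above WT. The log2 KOWI over WT was 0.85 and 1.27, a mean of 1.06 (SE 0.18, limma adjusted p = 0.0413), so Uchl1 was called. Its mean level was 1.78-fold higher in KOWI than in WT, with WT taken as no lower than the dimmest probe well above background. This value is not a lower limit, since the probe read up to 7.42 in WT without being marked. It also leaves out the spread between replicates and depends on groups that let the probe pass the filter. KO over WT was 0.73 and 1.07, a mean of 0.90 (limma adjusted p = 0.521), and its mean levels differed 1.79-fold by the same rule. KOWI over KO was 0.16 (SE 0.18, limma adjusted p = 0.868).

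The Uchl1 call was lost in 10 of 16 alternatives, among them 5 of the 6 that leave out 1 sample and the one that keeps outlier spots (1.05, limma adjusted p = 0.0801). Its size depends on how background is taken off. The scanner software's own ratios gave a log2 KOWI over WT of 3.11 (limma adjusted p = 0.0669), and the authors' deposited table gave 3.08 (adjusted p = 0.110).

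Ret was well above background in all 12 organoid channels. It read 7.80 and 7.20 in WT, 7.92 and 7.80 in KO and 7.39 and 7.73 in KOWI. The groups overlapped, and the level of WT replicate 1 was 8.20 on one of its arrays and 7.40 on the other. The log2 KO over WT was 0.52 and 0.27 (mean 0.39, SE 0.23, limma adjusted p = 1.00), KOWI over WT was 0.08 and 0.61 (mean 0.34, adjusted p = 0.458), and KOWI over KO was -0.44 and 0.34 (mean -0.05, adjusted p = 0.972).

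Chat was seen through A_55_P2744601, a probe whose ends lie 2024 bases apart on the genome, so it spans a splice junction. It read 6.85 and 7.64 in WT, 6.95 and 7.52 in KO and 6.96 and 7.43 in KOWI. In each group the Cy5 sample was the higher one. The log2 KOWI over WT was -1.13 in replicate 1 and 0.54 in replicate 2 (mean -0.30, SE 0.42, limma adjusted p = 0.752), so no direction held. The arrays that compared KOWI and WT directly gave 0.56 and -0.98. Its other 5 probes were well above background in at most 1 of 12 channels.

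In KOWI over WT, 6 genes of the lists were called. Of all 9894 genes tested, 3.26% were called higher and 2% lower, and nothing is read from the count. Of 5 other neuronal genes tested, Elavl2 was called lower at -1.38 (replicates -1.84 and -0.93, limma adjusted p = 0.0457), where 2% of all genes were called lower. Of 8 genes of the RET and EDNRB pathway tested, Artn was called higher at 1.36 (1.05 and 1.67, adjusted p = 0.0337). None of 5 other glial genes was called, and Dhh, a signal of Schwann cells, came nearest at 1.10 (adjusted p = 0.0585). Of 3 tuft cell genes tested, Ptgs1, a prostaglandin enzyme, was called higher at 2.74 (2.28 and 3.20, adjusted p = 0.0482). Tuft cells are epithelial chemosensory cells. Of 15 general epithelium genes tested, Vil1, the villin of the brush border, was called lower at -1.23 (adjusted p = 0.0335), as was Krt20, a keratin of mature surface cells, at -1.46 (adjusted p = 0.0413). Of 5 adipocyte genes tested, Cidea, a lipid droplet protein, was called higher at 1.25 (adjusted p = 0.0459). With outlier spots kept, none of these 6 calls held, with limma adjusted p from 0.0567 for Artn to 0.0957 for Elavl2.

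Enteroendocrine genes in organoids were 10 of 11 above 0 in KO over WT, with a median of 0.45, and 11 of 11 below 0 in KOWI over KO, with a median of -0.95. None was called in either. In KOWI over KO, Scg2, a granule protein, was -2.64 and -1.84 (limma adjusted p = 0.0559) and Neurod1 was -1.82 and -1.33 (adjusted p = 0.0607). All genes tested had a median of -0.04 there, with 43.9% above 0. In KO over WT their median was 0.05, with 61.1% above 0. With outlier spots kept, Scg2 had a mean of -2.21 (adjusted p = 0.142) and Neurod1 of -1.58 (adjusted p = 0.148).

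The difference between the KO effect in tissue and in organoids was tested for the 3 markers measured in both. The experiments also differ in recombinase, DSS treatment, Nutlin-3A selection and slide, which cannot be told apart from the RNA source. No gene was called by limma, 0% of 8665, and 1087 (12.5%) had an unadjusted p under 0.05. For Ret the difference of tissue minus organoids was -0.61 (SE 0.15, limma adjusted p = 0.307). For Gpm6b it was -0.16 (SE 0.34, adjusted p = 0.869), from 0.80 in tissue and 0.96 in organoids, but -1.47 with the scanner software's ratios (adjusted p = 0.361) and -1.46 with the authors' deposited table (adjusted p = 0.373). For Uchl1 the size of the difference is not read, since the probe was not well above background in WT organoids. Its limma adjusted p was 0.259, and the fitted value ran from -2.87 to -0.82 over the alternatives.

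Genes with the most similar pattern over the 10 arrays were sought among 6615 genes by the root mean square difference of log2 ratios. For Gpm6b they were Bend4, Prrx2 and Zfp52 at 0.65, 0.67 and 0.78, so no gene was close. For Uchl1 they were Lockd, Dmkn and Prim2 at 0.18, 0.20 and 0.24. For Ret they were Mrpl49, Ubr7 and Rras2 at 0.14, 0.15 and 0.15.

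Promoters, from 250 bases before to 50 after the gene start, were taken from RefSeq on GRCm38.p6, where 6 of the 8 genes had an entry. They are printed for Gpm6b and Uchl1, the 2 markers called higher in KOWI over WT. Capitals mark the one match to the motifs searched on both strands.
Gpm6b, chrX:166238693-166238992, plus strand: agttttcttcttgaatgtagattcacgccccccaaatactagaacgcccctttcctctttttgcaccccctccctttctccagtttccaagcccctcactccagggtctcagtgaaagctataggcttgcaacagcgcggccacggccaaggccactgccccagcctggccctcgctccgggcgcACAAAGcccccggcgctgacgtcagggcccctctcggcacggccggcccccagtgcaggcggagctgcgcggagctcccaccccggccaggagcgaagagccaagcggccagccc
Uchl1, chr5:66675871-66676170, plus strand: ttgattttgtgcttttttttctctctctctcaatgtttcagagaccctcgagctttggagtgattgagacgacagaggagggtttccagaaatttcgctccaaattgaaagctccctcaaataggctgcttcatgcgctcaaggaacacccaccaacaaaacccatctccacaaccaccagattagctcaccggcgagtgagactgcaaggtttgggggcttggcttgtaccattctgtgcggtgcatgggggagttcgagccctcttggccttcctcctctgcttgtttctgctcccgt
The motifs were ACAAAG for SOX factors, CTTTGA for TCF/LEF, CAGCACC for part of the REST site, CAGGTG for an E-box, GGGCGG for the GC box and TATAAA. Gpm6b held ACAAAG once, starting 65 bases before the gene start, and 18.7% of 32851 promoters hold it on either strand. Uchl1 held none of the 6. Shares of the other motifs were 16%, 7.14%, 20.2%, 35.7% and 13.6%, in the order given.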

How the data were processed

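The members and gene lists were chosen with earlier results of these data known. The authors' scans were extracted, per the file headers, with Agilent Feature Extraction 12.2.0.7 (protocol GE2_1200_Dec17, design 074809, probes on mm9), and spot mean and background intensity were deposited without normalization. The deposited log10 ratio of the scanner software is Cy5 over Cy3 after background subtraction and dye normalization, per the file headers. A table of log2 ratios was deposited too; the submitters' processing notes give limma as its tool and no steps, and its centring is unknown.

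Here intensities were corrected with normexp (offset 50) and loess in R 4.3.3 with limma 3.58.1, control spots at weight 0 and outlier spots set to missing. A gene is its brightest probe, tested if all channels of 1 or more groups were well above background. Tissue dye swaps were averaged and the 2 pair ratios tested against 0. Same-numbered KO and WT mice shared arrays, and their deviations correlated at 0.787, so tissue kept the pair. Organoid arrays were reduced to 6 sample values, tested by group with the replicate number (also the dye) as a term. Benjamini-Hochberg adjustment ran over all genes tested, and calls were made at 0.05. The fits were tested on simulated data. Levels are log2 channel intensities after loess and Aquantile, compared within an experiment only; each experiment was on 1 slide, and the number of arrays limits precision. In 1 tissue label the Cy3 source's replicate number differs from the title, and the title was used. Named genes were all members, plus up to 4 genes a list with the smallest p in tissue (for neural, enteroendocrine and tuft lists also in KOWI over WT) and any list gene called. Some genes that this rule names are not reported here. Alternatives were other background corrections, normalizations, filters, probe rules, blocks and left-out samples.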

Additional observations from a re-analysis of the deposited data

Results flagged for a closer look

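The Ret probe had opposite signs of KO over WT in tissue and in organoids, and passed the test in neither (limma adjusted p of 0.386 and 1.00). Its log2 KO over WT was -0.29 and -0.14 in the 2 mouse pairs and 0.52 and 0.27 in the 2 organoid replicates. The difference of tissue minus organoids was -0.61 (SE 0.15), with a limma adjusted p of 0.307, which did not pass. RNA source, recombinase, DSS treatment, Nutlin-3A selection and slide cannot be told apart in this difference. Over 10 alternatives the difference ran from -0.97 to -0.61, with limma adjusted p between 0.304 and 0.761.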

How the results depend on the processing

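Over the alternatives run, the direction of Gpm6b in all 4 comparisons, of Ret in tissue and in both organoid comparisons with WT, of Sox10 in tissue and of Uchl1 in the 3 organoid comparisons did not change. The main fit called 521 genes and 2 markers in KOWI over WT and 42 and 1 in KOWI over KO. Its marker medians were 0.65 in KO over WT and 0.70 in KOWI over WT. With the main filter these medians include Uchl1, Gpm6b and Chat, which entered only through KO or KOWI. The sign and size of organoid marker medians are therefore not read as a result. With the scanner software's ratios, KOWI over WT had 143 genes called and 1 marker, and KOWI over KO had 0 and 0. The marker medians were then 1.47 in KO over WT and 1.88 in KOWI over WT. The authors' deposited table gave 4 genes and 1 marker in KOWI over WT and 0 and 0 in KOWI over KO. Median centring without loess called 865 genes and 1 marker in tissue, 186 and 1 in KOWI over WT, 11 genes in KOWI over KO and 19 in the difference between tissue and organoids. It turned Uchl1 in tissue to -0.0039 and Chat in KO over WT to -0.0022. Without background correction the marker median in KO over WT was 0.85. With outlier spots kept, the medians were 0.39 in KO over WT and 0.33 in KOWI over WT, with 60 genes and 1 marker called in KOWI over WT and 0 and 0 in KOWI over KO. Without a filter on dim probes, more genes were tested, the medians were 0.10 in KO over WT and -0.019 in KOWI over WT, 226 genes and 1 marker were called in KOWI over WT, and 4 genes and 0 markers in KOWI over KO. Requiring every channel well above background left Ret as the only marker tested in organoids, so the medians of 0.39 in KO over WT and 0.34 in KOWI over WT are its values and the 0 markers called in both KOWI comparisons follow from the filter, with 23 genes called in KOWI over KO. With only probes under a log2 intensity of 14, or with the mean of all probes, 1 gene was called in KO over WT. Arrays taken as independent gave 924 genes in tissue, 627 genes and 2 markers in KO over WT, 3583 in KOWI over WT and 2213 in KOWI over KO. The cause of these changes was not tested where no reason is given.

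Leaving out 1 sample at a time gave 0 to 12 genes in KO over WT, 0 to 780 genes and 0 to 2 markers in KOWI over WT, and 0 to 143 genes and 0 to 1 marker in KOWI over KO. The marker median ran from -0.10 to 0.27 in tissue and from 0.37 to 0.74 in KO over WT. Uchl1 in tissue ran from -0.25 to 0.36 and Ret in KOWI over KO from -0.40 to 0.25. Chat ran from -0.35 to 0.60 in KO over WT, from -1.11 to 0.45 in KOWI over WT and from -1.14 to 0.42 in KOWI over KO. In KOWI over WT the count was 0 without KOWI replicate 2, 15 without KO replicate 2, 48 and 108 without WT replicate 2 and 1, and 272 without KOWI replicate 1. In KOWI over KO it was 0 without KO or KOWI replicate 2 and 143, 121 and 134 without KO replicate 1, WT replicate 1 and WT replicate 2. A group left with 1 sample was taken to vary like the others. Without the replicate block, or without the mouse pairing in tissue, 0 genes were called in tissue and in KO over WT, 388 in KOWI over WT and 38 in KOWI over KO, and no marker's call changed. Chat, Nos1, Gfap and 2 Elavl4 probes in tissue, and Sox10, Gfap and Nos1 in organoids, were limited by signal near background, and 2 mice or samples a group limit every test.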
